A study of Mus musculus with 88 samples.

Results

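The transcripts of 10 genes that write, copy, erase or shield DNA methylation were followed in single fully grown germinal vesicle (GV) oocytes, the stage at which the oocyte is arrested in meiotic prophase with an intact nucleus. The genes were Dnmt1, Uhrf1, Dppa3, Dnmt3a, Dnmt3b, Dnmt3l, Tet2, Tet3, Zfp57 and Trim28. Each was matched to a feature of the oocyte transcriptome over which reads had been counted, under the study's own gene name where it gave one, and otherwise through the best-overlapping same-strand gene of GENCODE M21, with a shared span of at least 0.3 of the joint span. This found 9 of the 10 genes among 38540 features. Trim28 had no feature by this rule and is described apart.

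All oocytes came from virgin C57BL/6Babr females with spontaneous cycles, aged 12 weeks (young) or 44 to 54 weeks (aged), and no group carried a transgene or a treatment. Polyadenylated RNA was captured from each oocyte separately and amplified, and the study then assigned a chromatin configuration from the transcripts themselves. In the NSN configuration chromatin does not ring the nucleolus (non-surrounded nucleolus), and in the later SN configuration it does (surrounded nucleolus). There were 30 young NSN, 12 young SN, 37 aged NSN and 8 aged SN oocytes, 87 in all. A further aged oocyte, 48A, had been set aside and belongs to no configuration group. Because configuration was predicted from the RNA of the same oocytes, a difference between NSN and SN oocytes is a description and not an independent observation, and it was not checked whether any of the 10 genes entered that prediction. The oocytes were pooled from several females of each age and the labels do not say which female gave which oocyte. Each group was therefore treated as 1 sample, and no test between groups was made.

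In growing oocytes the de novo methyltransferase Dnmt3a, with its catalytically inactive partner Dnmt3l, lays down methylation on a genome that was erased in the germ line, and Dnmt3b contributes little. Dnmt1 copies methylation onto the new strand after replication and is guided there by Uhrf1, a protein that binds hemimethylated DNA. Dppa3 (Stella) keeps Uhrf1 out of the oocyte nucleus and shields the maternal genome in the zygote, Tet3 is the maternal dioxygenase that oxidises methylcytosine after fertilisation, and Zfp57 recruits Trim28 to methylated imprints in the early embryo.

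The members' promoters differed widely in CG dinucleotides, the letters on which these enzymes act. RefSeq (GRCm38.p6) gave 18 start sites for 9 of the 10 listed genes, Dppa3 being without one. In the 250 bases before each start, the number of CG dinucleotides ran from 2 to 51, where the median over 32851 such windows of mouse genes was 6 and the middle range from the lower to the upper quartile was 2 to 16. The window of Tet2 held 51 and that of the upstream start of Dnmt1 held 2. A further window of Dnmt1, which overlaps an annotated exon, held 26. The 5 windows below are from the maintenance pair and the de novo genes, and held from 4 to 38. Each is written 5′ to 3′ on the strand of the gene with every CG in capitals, and none overlaps an annotated exon.
Dnmt1, chr9:20952980-20953229, minus strand, 7 CG: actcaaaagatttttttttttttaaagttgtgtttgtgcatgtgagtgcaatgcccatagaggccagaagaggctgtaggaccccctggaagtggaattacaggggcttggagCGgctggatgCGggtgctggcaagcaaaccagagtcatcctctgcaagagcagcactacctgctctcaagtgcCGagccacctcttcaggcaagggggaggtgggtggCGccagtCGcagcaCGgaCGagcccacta
Uhrf1, chr17:56304063-56304312, plus strand, 30 CG: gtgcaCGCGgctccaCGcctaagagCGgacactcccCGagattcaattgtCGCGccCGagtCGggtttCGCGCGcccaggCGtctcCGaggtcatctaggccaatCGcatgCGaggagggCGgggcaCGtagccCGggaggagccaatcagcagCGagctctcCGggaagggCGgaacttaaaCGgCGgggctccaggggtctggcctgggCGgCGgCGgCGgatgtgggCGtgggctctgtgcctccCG
Dnmt3a, chr12:3806730-3806979, plus strand, 38 CG: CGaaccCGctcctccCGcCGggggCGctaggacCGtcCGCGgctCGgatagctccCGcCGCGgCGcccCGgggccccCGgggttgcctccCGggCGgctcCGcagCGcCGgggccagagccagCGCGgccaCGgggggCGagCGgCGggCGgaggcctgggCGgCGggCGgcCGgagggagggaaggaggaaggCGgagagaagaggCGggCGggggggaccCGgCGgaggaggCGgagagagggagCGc
Dnmt3b, chr2:153649199-153649448, plus strand, 21 CG: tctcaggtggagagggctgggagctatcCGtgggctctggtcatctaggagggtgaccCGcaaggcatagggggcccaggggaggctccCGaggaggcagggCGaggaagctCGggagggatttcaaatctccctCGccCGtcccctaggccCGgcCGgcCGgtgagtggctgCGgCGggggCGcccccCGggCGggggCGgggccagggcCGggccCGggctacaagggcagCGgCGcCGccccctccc
Dnmt3l, chr10:78049592-78049841, plus strand, 4 CG: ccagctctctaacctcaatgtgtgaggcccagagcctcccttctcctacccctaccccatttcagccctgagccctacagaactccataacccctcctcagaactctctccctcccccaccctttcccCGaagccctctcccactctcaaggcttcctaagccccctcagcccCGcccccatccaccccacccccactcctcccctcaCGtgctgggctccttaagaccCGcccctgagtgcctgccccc
The Dnmt3a window lies wholly upstream of the counted feature, whose first base is 50 bases past the annotated start. The Dnmt1 and Dnmt3l starts shown lie 7203 and 8020 bases inside their features, which begin further upstream, and the Uhrf1 and Dnmt3b starts lie 1353 and 16630 bases inside. GGGCGG, read on both strands, occurred 5 times in the Dnmt3a window, 3 times each in the Uhrf1 and Dnmt3b windows, 2 times in the Dnmt3l window and not in the Dnmt1 window, and 32.7% of all windows held it. The counts were made per feature and not per start, so they do not say which start was used.

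The depth of the libraries limits the rare transcripts only. The total count per oocyte was 2338311 to 4546294 in young NSN, 1579196 to 8231046 in young SN, 976456 to 5448310 in aged NSN and 1007492 to 4798888 in aged SN oocytes. Levels are CPM, the count per 1000000 counts of a library. A group's pooled level is the summed count of the gene over the summed total of the group, and its 95% interval (exact Poisson, or the exact conditional interval for a ratio) covers counting error only. A CPM is a share of the library, so a change in the RNA content of the whole oocyte leaves no trace in it. The oocyte markers (8 of 10 with a feature, among them Zp2, Gdf9 and Bmp15) summed to between 13002 and 22655 CPM in the young and between 7813 and 22364 CPM in the aged oocytes. The granulosa and cumulus markers (9 of 10 with a feature) summed to between 5.67 and 100.2 CPM in the young and between 6.14 and 114 CPM in the aged oocytes. Theca and stroma markers (4 of 6 with a feature, Col1a1 at 0) reached 2.96 CPM in a young and 0.897 CPM in an aged oocyte at most. Blood and immune markers (4 of 5 with a feature, with the globins Hbb-bs and Hba-a1 at 0) reached 2.47 CPM in the young and 48.6 CPM in the aged oocytes, the latter in the NSN group and mainly from Lyz2.

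Per kilobase of annotated exon, the maternal protector Dppa3 was the most abundant of the 9 genes and Tet2 the least. In young oocytes the level per kilobase was 1964 CPM for Dppa3, followed by Zfp57 at 313, Dnmt1 at 275 and Uhrf1 at 239 CPM per kilobase. Tet3 at 52.2 and Dnmt3l at 51.3 CPM per kilobase came next, then Dnmt3a at 12.7, Dnmt3b at 3.64 and Tet2 at 0.290 CPM per kilobase. The order in aged oocytes was the same but for Tet3 and Dnmt3l, which changed places at 49.6 and 51.8 CPM per kilobase, and these neighbours lie within the spread between oocytes. The SD over young oocytes of the unscaled level was 188 CPM around a mean of 1184 CPM for Zfp57 and 239 CPM around 2014 CPM for Dnmt1, so that the neighbours Zfp57, Dnmt1 and Uhrf1 also stand close together for their spread. The step from Uhrf1 down to Tet3 exceeded the spread within either gene, and the 3 de novo genes stood below the maintenance pair on this scale.

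**Figure D1:**
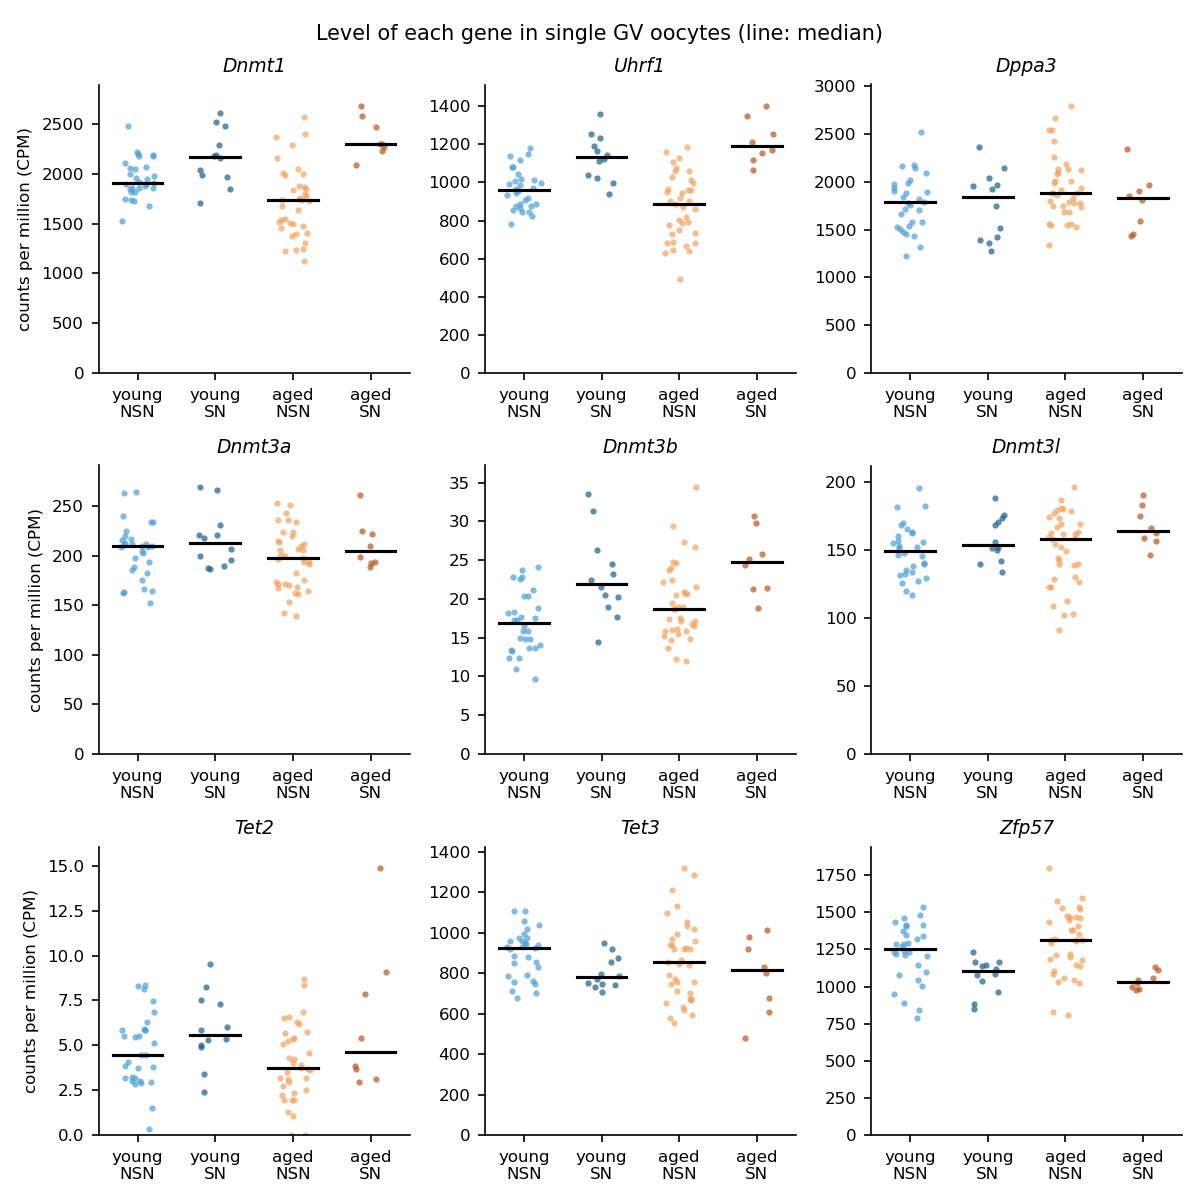
Level of the 9 genes in single oocytes. Each point is an oocyte, the vertical axis is CPM from 0, and the line is the median of the group (30 young NSN, 12 young SN, 37 aged NSN and 8 aged SN oocytes). The ranges overlap in every panel, the SN groups sit high for Dnmt1, Uhrf1 and Dnmt3b and low for Zfp57, and the aged NSN oocytes are the most scattered for Dnmt1 and Uhrf1.

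The maintenance genes were taken first. Dnmt1 (TCONS_00105292, chr9:20907206-20960182, minus strand of GRCm38) had a lowest, median and highest level of 1523, 1911 and 2483 CPM in young NSN oocytes and of 1710.0, 2167 and 2608 CPM in young SN oocytes. In aged NSN oocytes the corresponding levels were 1124, 1734 and 2572 CPM, and in aged SN oocytes 2093, 2303 and 2682 CPM. All groups overlapped, but 13 of the 37 aged NSN oocytes lay below the lowest young NSN oocyte, and 32 of the 37 lay below the lowest aged SN oocyte. Pooled over both configurations, Dnmt1 stood at 2031 CPM (2023 to 2039) in young and 1824 CPM (1816 to 1832) in aged oocytes, a log2 ratio of -0.16 (-0.16 to -0.15).

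Uhrf1 (TCONS_00046140, chr17:56302960-56325035, plus strand), which brings Dnmt1 to hemimethylated sites, followed the same arrangement. Its lowest, median and highest levels were 779.6, 961 and 1181 CPM in young NSN, 942, 1134 and 1358 CPM in young SN, 494, 886 and 1183 CPM in aged NSN and 1063, 1192 and 1401 CPM in aged SN oocytes. Here 12 of the 37 aged NSN oocytes lay below every young NSN oocyte, and 4 of the 8 aged SN oocytes lay above every aged NSN oocyte. The log2 ratio of aged over young oocytes was -0.12 (-0.14 to -0.11).

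The de novo genes were next. Dnmt3a (TCONS_00021086, chr12:3807030-3914443, plus strand) had a lowest, median and highest level of 152, 209 and 264 CPM in young NSN, 186, 212 and 269 CPM in young SN, 139.6, 197 and 253 CPM in aged NSN and 189, 205 and 261 CPM in aged SN oocytes. Its partner Dnmt3l (TCONS_00009629, chr10:78041822-78063622, plus strand) stood at 117, 149.6 and 196 CPM, at 134, 154 and 189 CPM, at 91.5, 158 and 197 CPM and at 147, 164 and 191 CPM in the same groups. The 4 groups of either gene overlapped broadly, and the counts of Dnmt3l relative to Dnmt3a within an oocyte had a median of 0.732 in the young and 0.783 in the aged oocytes, with ranges of 0.501 to 1.20 and 0.474 to 1.12. Dnmt3b (TCONS_00058398, chr2:153632819-153687730, plus strand) was scarce, with 9.67, 16.8 and 24.1 CPM in young NSN, 14.4, 21.9 and 33.6 CPM in young SN, 12.0, 18.7 and 34.4 CPM in aged NSN and 18.9, 24.8 and 30.7 CPM in aged SN oocytes. Of the 12 young SN oocytes, 11 lay above the median of the young NSN oocytes, and all 8 aged SN oocytes lay above the median of the aged NSN oocytes. The features of Dnmt3l and Dnmt3b overlap features on the other strand, Aire for Dnmt3l and Commd7 and Dnmt3bos for Dnmt3b, whose counts came to 6.25% and 15.3% of the gene's own, and whether counting used strand is not given in the sources used here. Dnmt3c, a rodent duplicate of Dnmt3b, may share reads with it.

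The genes that protect or remove methylation after fertilisation came last. Dppa3 (TCONS_00085913, chr6:122626199-122631064, plus strand) had a lowest, median and highest level of 1226, 1786 and 2521 CPM in young NSN, 1275, 1836 and 2361 CPM in young SN, 1334, 1883 and 2794 CPM in aged NSN and 1428, 1831 and 2343 CPM in aged SN oocytes. The groups overlapped almost throughout, with 4 of 37 aged NSN oocytes above every young NSN oocyte. Zfp57 (TCONS_00045812, chr17:36996203-37014475, plus strand), the zinc finger protein that recognises methylated imprints, stood at 789.9, 1254 and 1538 CPM in young NSN, 852, 1103 and 1233 CPM in young SN, 811, 1311 and 1799.8 CPM in aged NSN and 974, 1034 and 1131 CPM in aged SN oocytes. None of the 12 young SN oocytes and none of the 8 aged SN oocytes exceeded the median of the NSN oocytes of their age, although their ranges lay inside those of the NSN oocytes. Its feature begins 4960 bases upstream of the annotated gene and had the lowest shared span of the 9, 0.518.

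Tet3 (TCONS_00087743, chr6:83362142-83460282, minus strand) had a lowest, median and highest level of 676, 926 and 1107 CPM in young NSN, 707, 778 and 950.5 CPM in young SN, 552, 854 and 1319 CPM in aged NSN and 479.9, 813 and 1010.4 CPM in aged SN oocytes. The aged oocytes reached beyond the young at both ends, with 11 of 45 below and 4 of 45 above every young oocyte. Tet2 (TCONS_00068749, chr3:133463679-133545099, minus strand), its paralogue, was near the limit of detection at 0.358, 4.44 and 8.34 CPM in young NSN, 2.42, 5.60 and 9.55 CPM in young SN, 0, 3.71 and 8.72 CPM in aged NSN and 2.94, 4.64 and 14.9 CPM in aged SN oocytes. It had a count in all 42 young and in 43 of 45 aged oocytes, with a median of 16 counts in the young and 9 in the aged, so that its values carry the largest counting error of the 9 genes.

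For Trim28, the corepressor that Zfp57 recruits, the annotated gene is extended upstream by an alternative transcript, and the best overlap of any feature was 0.216. The feature TCONS_00089418 (chr7:13024152-13031035, plus strand) has the same first and last base as an annotated transcript of Trim28, and was chosen by those coordinates after the rule had found none. Its lowest, median and highest levels were 32.9, 65.3 and 104 CPM in young NSN, 38.8, 59.4 and 82.4 CPM in young SN, 29.8, 49.3 and 136 CPM in aged NSN and 42.2, 59.0 and 76.5 CPM in aged SN oocytes. Its log2 ratio of aged over young was -0.24 (-0.29 to -0.19), and 9 of 45 aged oocytes exceeded the young median. Aged oocytes 9 to 16 stood at 48.2 CPM and 41 to 48 at 49.1 CPM, but 25 to 31 stood at 70.5 CPM. Young oocytes 1 to 7, 17 to 24 and 33 to 39 stood at 70.1, 63.4 and 63.8 CPM. The decrease was thus absent from aged oocytes 25 to 31. Trim28 is not counted among the members below.

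The first comparison asked whether the level of these transcripts differed with maternal age. A limit of 0.32 on the log2 scale, 25% higher or lower by the same log2 value, was used throughout. None of the 8 members with at least 10 CPM in a group was past this limit between aged and young oocytes, where 2.54% of 9397 features at that level were. Tet2 was under 10 CPM in every group. The log2 ratios of the 9 genes ran from -0.19 for Tet2 (-0.36 to -0.01) and -0.16 for Dnmt1 to 0.13 for Dppa3 (0.12 to 0.14) and 0.17 for Dnmt3b (0.09 to 0.26), with a median of -0.07 beside -0.0044 over all features. Dnmt3a stood at -0.09, Tet3 at -0.07, Dnmt3l at 0.02 and Zfp57 at 0.06. The ratio of Dnmt1 was lower than that of 88.1% of the features tested and the ratio of Dnmt3b higher than that of 94.1%.

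Within NSN oocytes none of the 8 members was past the limit either, with 3.22% of features past it, and the largest log2 ratios were 0.24 (0.15 to 0.34) for Dnmt3b and -0.19 (-0.20 to -0.18) for Dnmt1. Uhrf1 had -0.14 (-0.15 to -0.13) and Dppa3 0.13 (0.12 to 0.14). Within SN oocytes none of the 8 was past it where 12.3% of features were, and Dnmt1 and Uhrf1 had log2 ratios of 0.07 each, on the other side of 0 from their NSN values. The SN value of Dnmt1 was -0.0050 without young oocytes 33 to 39 and -0.04 in oocytes with names not ending in A, and that of Uhrf1 was -0.01 without aged oocytes 25 to 31 and -0.09 in oocytes with names not ending in A, so that their side rests on these oocytes. Zfp57 had 0.07 in NSN and -0.10 in SN oocytes, and -0.06 in the NSN oocytes with names ending in A. These differences between configurations were not tested.

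**Figure D2:**
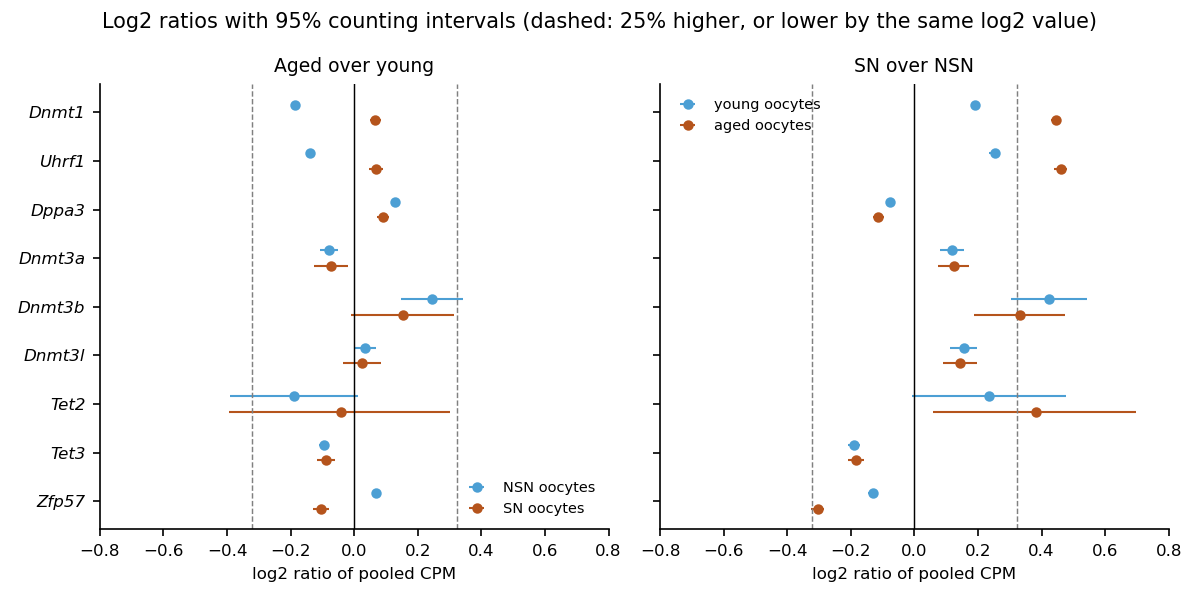
Log2 ratio of pooled CPM for the 9 genes. The left panel gives aged over young oocytes within NSN and SN oocytes, and the right panel SN over NSN within young and aged oocytes, on a common log2 axis. Bars are 95% counting intervals and dashed lines mark the limit of 0.32 either way. No point passes the dashed lines in the left panel, though the intervals of Tet2 and Dnmt3b reach past them, and in the right panel Dnmt1 and Uhrf1 stand at 0.44 and 0.46 in aged oocytes.

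The oocyte numbers fall into 3 blocks of consecutive numbers per age (1 to 7, 17 to 24 and 33 to 39 in the young, 9 to 16, 25 to 31 and 41 to 48 in the aged), and what the blocks stand for is not given. Each block holds oocytes of 1 age, so block and age cannot be told apart. Pooled per block, Dnmt1 was between 1961 and 2072 CPM in the young and between 1736 and 1928 CPM in the aged blocks, without overlap. It was alone in this among the 9 genes, where 13.1% of features had no overlap either way and 6.6% had all aged blocks lower. Among NSN oocytes, Dnmt1 was between 1869 and 2044 CPM in the young and between 1602 and 1793 CPM in the aged blocks. It was again without overlap and alone among the 9, where 12.8% of features had no overlap and 7.18% had all aged blocks lower. With 9 genes, 1 without overlap stands near the share of all features in both sets. Among SN oocytes the blocks of every one of the 9 overlapped.

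Tet3 differed widely between blocks of the same age. It ran from 650.2 CPM in aged oocytes 41 to 48 over 876 CPM in 9 to 16 to 1017 CPM in 25 to 31, while the young blocks lay between 789 and 949 CPM. Its log2 ratio of aged over young was -0.24 without aged oocytes 25 to 31 and 0.13 without aged oocytes 41 to 48, so that 1 block set its sign. The scarce Tet2 ran from 3.29 to 5.91 CPM over the aged and from 4.77 to 5.09 CPM over the young blocks, and its ratio also changed sign with a block, from -0.19 to 0.04 without aged oocytes 41 to 48.

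**Figure D3:**
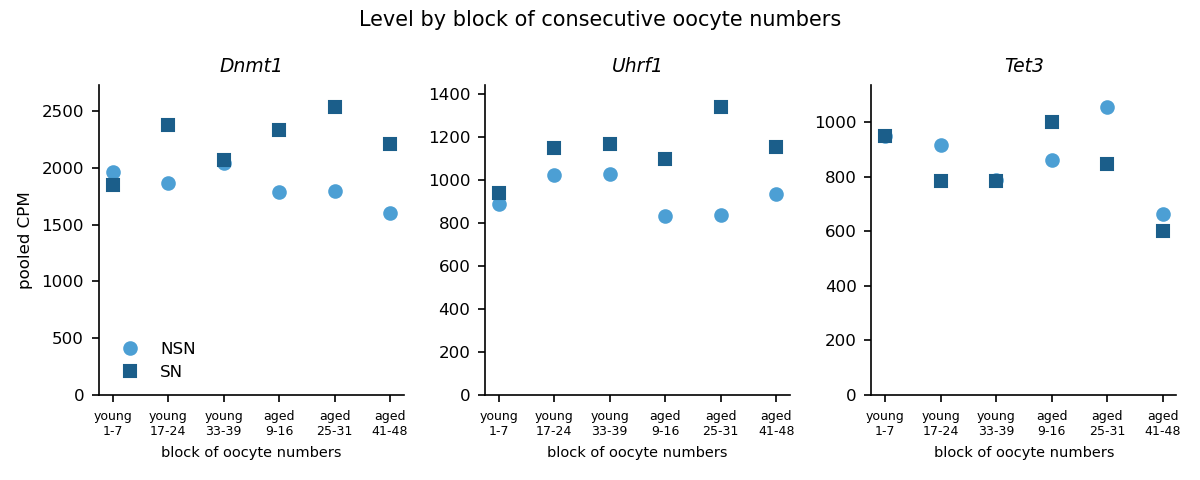
Pooled CPM of Dnmt1, Uhrf1 and Tet3 in each block of consecutive oocyte numbers, split into NSN (circles) and SN (squares) oocytes, with the vertical axis from 0. Dnmt1 in NSN oocytes is lower in each aged block (1602 to 1793 CPM) than in any young block (1869 to 2044 CPM). The same order of blocks holds for 7.18% of features. Tet3 varies more between aged blocks than between ages.

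The second comparison set SN against NSN oocytes of the same age. In young oocytes 1 of the 8 members was past the limit, where 12.1% of features were, 9.14% higher and 2.97% lower in SN. This was Dnmt3b, at 22.7 CPM (21.2 to 24.2) in SN and 16.9 CPM (16.1 to 17.8) in NSN oocytes, a log2 ratio of 0.42 (0.30 to 0.54). The ratio was inside the limit at 0.30 without young oocytes 1 to 7 and at 0.29 in oocytes with names ending in A alone. Uhrf1 at 0.25 and Dnmt1 at 0.19 were also higher in SN, Tet3 at -0.19 and Zfp57 at -0.13 were lower. Without young oocytes 17 to 24 the ratio of Dnmt1 was 0.04, and without young oocytes 33 to 39 that of Zfp57 was -0.04. In oocytes with names not ending in A, Uhrf1 was past the limit at 0.33 and Tet3 stood at -0.27, and in those with names ending in A Tet3 stood at -0.09.

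In aged oocytes 3 of the 8 members were past the limit, all higher in SN, where 32.3% of features were past it, 19.2% higher and 13% lower. Dnmt1 stood at 2334 CPM (2312 to 2355) in SN and 1715 CPM (1707 to 1723) in NSN oocytes, a log2 ratio of 0.44 (0.43 to 0.46). Uhrf1 stood at 1204 CPM (1189 to 1219.6) in SN and 875 CPM (869 to 881) in NSN oocytes, a log2 ratio of 0.46 (0.44 to 0.48). Dnmt3b had 0.33 (0.19 to 0.47), and was inside the limit at 0.30 with TMM factors, at 0.30 without aged oocytes 25 to 31 and at 0.20 in oocytes with names not ending in A. With 8 members, these counts stand near the shares of all features. Zfp57 stood just inside the limit at -0.30 (-0.33 to -0.28), and was past it when levels were averaged per oocyte with either set of size factors, taken as the median over oocytes or thinned to 900000 counts per oocyte. Without aged oocytes 41 to 48 it stood at -0.36. Tet2, outside the count for its level, had 0.38 (0.06 to 0.70), and 0.24 without aged oocyte 15, the one at 14.9 CPM. Its ratio was 0.04 in oocytes with names not ending in A and 0.81 in the others.

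The direction was compared block by block as a description of its evenness. The share of all features with the same direction in 6 of 6 blocks was not computed, and the blocks hold 1 to 6 SN oocytes. Uhrf1 was higher in SN than in NSN oocytes in 6 of 6 blocks, with log2 ratios between 0.08 and 0.67. Dnmt3b was also higher in 6 of 6, between 0.12 and 0.44. Dnmt3l lay between 0.00 and 0.25, and was level in young oocytes 33 to 39 at 155.3 CPM in both configurations. By the median it was lower in SN there, at 146.7 against 147.8 CPM. Dnmt1 was higher in 5 of 6, with -0.09 in young oocytes 1 to 7, which hold 1 SN oocyte. Zfp57 was lower in 5 of 6 blocks, from -0.37 to 0.01. Dppa3 and Tet3 were lower in 4 of 6 and higher in 2. The summed oocyte markers moved with configuration as well, at 16215 CPM in young NSN against 19567 CPM in young SN and 14847 CPM in aged NSN against 20589 CPM in aged SN oocytes, and their part in the values of Dnmt1 and Uhrf1 was not tested.

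Within single oocytes, 2 pairs of counts are given, picked from those computed after the levels had been seen. Zfp57 had been seen to be low and Dnmt1 high in SN oocytes, so a separation by their ratio restates that choice. The share of other pairs with such a separation was not computed. The count of Uhrf1 relative to Dnmt1 had a median of 0.490 in young NSN, 0.528 in young SN, 0.513 in aged NSN and 0.523 in aged SN oocytes, and its ranges overlapped throughout. The count of Zfp57 relative to Dnmt1 had a median of 0.636 in young NSN, 0.482 in young SN, 0.798 in aged NSN and 0.437 in aged SN oocytes. In the aged oocytes it ran from 0.473 to 1.28 in NSN and from 0.411 to 0.498 in SN, and 36 of 37 NSN oocytes exceeded every SN oocyte. In the young oocytes 15 of 30 NSN oocytes exceeded every SN oocyte.

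The third comparison concerned the spread between oocytes, as the coefficient of variation (CV) of counts scaled by median-of-ratios size factors, less the part due to counting. It was larger in aged oocytes for 8 of the 9 genes, where 73.7% of 12205 features with a mean of at least 10 scaled counts had a larger value in aged oocytes. The CV of Dnmt1 was 11.9% in young and 22.3% in aged oocytes, that of Uhrf1 12.4% and 22.2%, and that of Tet3 13.4% and 22.1%. These values were taken over oocytes of all blocks, so differences between blocks enter them. Tet3 ran from 650.2 to 1017 CPM over the aged blocks and from 789 to 949 CPM over the young blocks. With spread taken within blocks, 9 of the 9 genes were more dispersed in the aged, where 71.4% of 12205 features were. On the log2 scale the squared CV was 1.81 higher in the aged for Dnmt1, 1.68 for Uhrf1 and 1.46 for Tet3, values exceeded by 4.02%, 5.55% and 9.32% of features, where the median over features was 0.46. Tet2 had a CV of 30.7% in young and 52.1% in aged oocytes. In Dnmt3l it was 11.5% and 15.2%, in Dnmt3a 11.9% and 13.04%, in Dppa3 16.8% and 17.4% and in Zfp57 15.9% and 16.6%, and in these last 3 genes the values of the ages lay close together.

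Dnmt3b was the exception, with a CV of 23.1% in young and 19.5% in aged oocytes. Within NSN oocytes alone it was higher in the aged, by 0.19 on the log2 scale of the squared CV, and Zfp57 was then the exception at -0.07. Dnmt1 at 2.00, Uhrf1 at 1.83 and Tet3 at 1.40 kept the larger differences within NSN oocytes. Tet2 stood at 0.57 there and at 1.53 over both configurations, where aged SN oocyte 15 had 14.9 CPM. Depth differed with age, with a median total of 3002989 counts in young and 2379884 in aged oocytes, and with all oocytes thinned to 900000 counts 7 of the 8 members with enough counts were more dispersed in the aged, where 71.7% of 8912 features were.

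**Figure D4:**
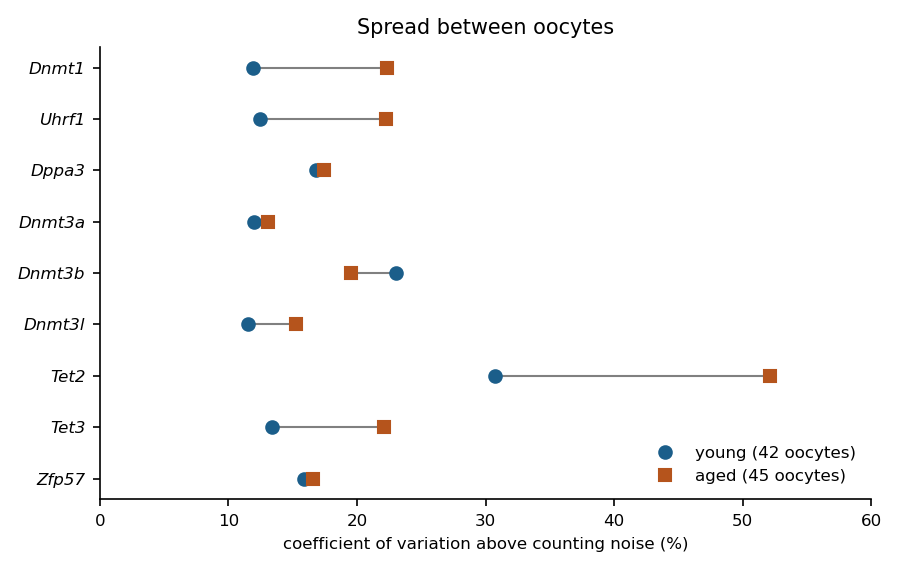
Coefficient of variation between oocytes, above counting noise, in per cent on a linear axis from 0, for young (circles) and aged (squares) oocytes of both configurations. Differences between blocks of oocyte numbers enter these values. The distance between the symbols is widest for Tet2, Dnmt1, Uhrf1 and Tet3, close to 0 for Dppa3, Dnmt3a and Zfp57, and reversed for Dnmt3b.

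The genes were also compared with each other over the 87 oocytes, on log2(CPM + 1) less the mean of each age and configuration group. These correlations describe the oocytes, which share mice and preparation, and carry no p-value. The means of the blocks were not taken out, so differences between blocks, such as those of Tet3 and Tet2, enter them. Uhrf1 went with Dnmt3l (Pearson's r = 0.53) and with Dnmt1 (r = 0.49), Dnmt1 with Dnmt3l (r = 0.43), and Tet2 with Tet3 (r = 0.38). Tet3 went against Dnmt3l (r = -0.46) and Uhrf1 (r = -0.38), and Zfp57 against Dppa3 (r = -0.37). Dnmt3a and Dnmt3l, which act as a complex, had r = 0.11. The median over the 36 pairs was 0.06, and the correlation with the log2 total count lay between -0.20 for Tet3 and 0.21 for Dnmt3b.

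Among NSN oocytes, Dnmt1 and Uhrf1 had r = 0.20 in the young and 0.55 in the aged, and Dnmt3a and Dnmt3l had -0.37 in the young and 0.38 in the aged. Dnmt3l and Zfp57 had 0.67 in the young and -0.11 in the aged. These differences between ages were not tested.

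**Figure D5:**
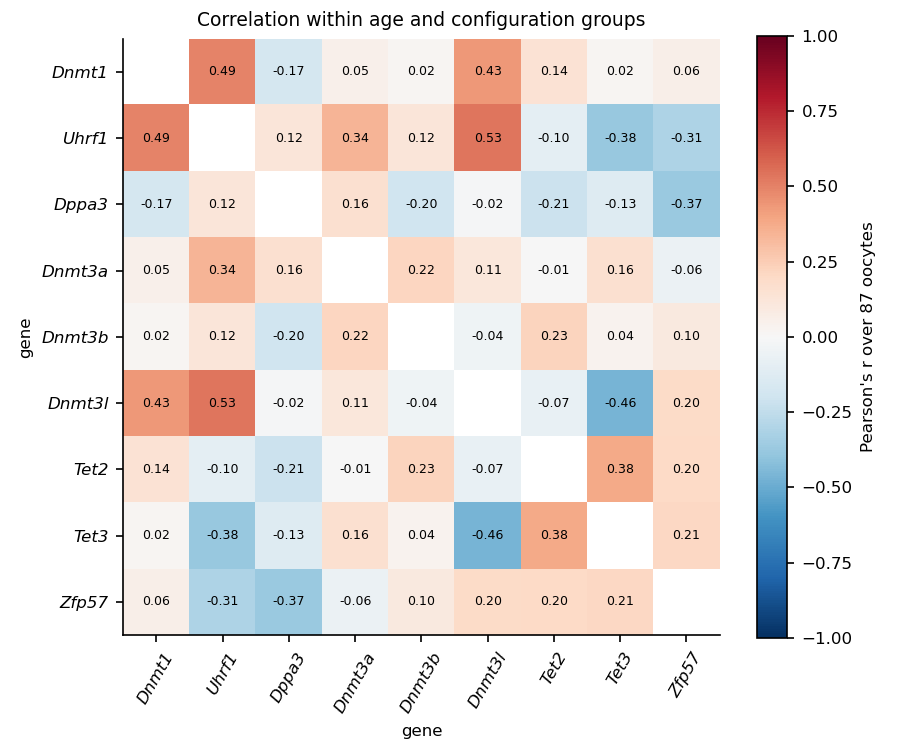
Pearson's r between the 9 genes over 87 oocytes, on log2(CPM + 1) less the mean of each age and configuration group, from -1 (blue) to 1 (red). Uhrf1, Dnmt1 and Dnmt3l form the block of highest values (0.43 to 0.53), and the lowest value is -0.46 between Dnmt3l and Tet3.

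Among 5365 other features with a mean of at least 100 counts, those whose pattern over the 87 oocytes was most like that of a member, by the same measure, were Hdlbp (r = 0.69) for Dnmt1 and Fbxo38 (r = 0.77) and Astl (r = 0.76) for Uhrf1. For Dnmt3l they were Tle2 (r = 0.77) and Gdf9 (r = 0.75), and for Dnmt3a Sephs2 and Tob2 (both r = 0.64). Dppa3 was most like Uqcrh and Pttg1 (both r = 0.81), Zfp57 like Slc6a9 (r = 0.82) and Accsl (r = 0.81), and Tet3 like Apc (r = 0.81) and Dusp7 (r = 0.80). The scarce Dnmt3b (Atp13a1, r = 0.47, and Fgfr2, r = 0.46) and Tet2 (C2cd3, r = 0.53, and Sept11, r = 0.52) had no close match. For every member at least 2 other features were closer than any other member. Far more features than members were searched, so this does not say whether the members go together.

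Other genes of the pathway were taken from a list of 52, of which 48 had a feature and 35 reached 10 CPM in young or aged oocytes. Kdm1b, Mbd4, Mbd2 and Zbtb4 had none under their own name. Between aged and young oocytes 0 of the 35 were past the limit, where 2.54% of all features were. Within NSN oocytes 1 of the 35 was past it, lower in the aged, where 3.22% of features were. Among the lowest log2 ratios was that of the methyl-CpG reader Mbd1 (-0.22), and the highest were those of Cdca7 (0.17) and Hells (0.16), which form a remodelling complex for maintenance in heterochromatin. Within SN oocytes 2 of the 35 were past the limit, where 12.3% of features were. These were Cdca7 at 0.70 and Mat2a, which makes the methyl donor, at 0.38. Cdca7 was close to the 10 CPM limit, at 11.0 CPM in young SN and 17.8 CPM in aged SN oocytes. Zfp445, a further imprint-binding zinc finger protein, stood at 32.99 CPM in young NSN and 31.4 CPM in aged NSN oocytes, with a log2 ratio of -0.07. Tet1 at 6.26 and 4.94 CPM and Dnmt3c at 1.57 and 1.75 CPM in the same groups were under the limit of 10 CPM.

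Between SN and NSN oocytes 1 of the 35 was higher and 1 lower past the limit in the young, and 6 were higher and 3 lower in the aged. Over all features, 12.1% were past it in the young and 32.3% in the aged, so neither count exceeds the share of all features. Both of the young were past it in the aged too. Ogt, a partner of the Tet enzymes, was higher at 128 CPM in young NSN and 164 CPM in young SN, and at 117 and 174 CPM in the aged. Atrx, a remodeller of heterochromatin, was lower at 698 CPM in young NSN and 517 CPM in young SN, and at 674 and 484 CPM in the aged. The maternal effect gene Nlrp2 had a log2 ratio of 0.32 in young and 0.65 in aged oocytes, and Mbd3, a subunit of a deacetylase complex, had -0.16 and -0.37. Cdca7, Parp1 and Mat2a were also higher in aged SN oocytes, and Apex1 was the other gene lower. By list, with few genes in each, the genes past the limit in the aged stand beside the same 32.3% of all features. They were 1 of 5 for maintenance, 0 of 4 for de novo targeting and 2 of 10 for imprint protection and heterochromatin. They were 3 of 5 for demethylation and repair, 2 of 4 for readers and 1 of 7 for methyl donor supply.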

How the data were processed

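RNA was sequenced from 88 single oocytes. Per the paper's methods, the authors trimmed the reads with Trim Galore, aligned them to GRCm38 with HiSat2 and counted primary alignments over features of an oocyte transcriptome, and the deposited values are raw counts per feature, without molecular identifiers. The counter and its strand setting are not given in the sources used here. Columns of the table were matched to samples by name, and the total equalled that of the study's sample list for 87 of 88 oocytes, aged oocyte 15 being the exception.

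Here counts were summed per group and expressed as CPM, log2 ratios were taken between groups, and a feature with at least 10 CPM in a group was called past a limit of 0.32 on the log2 scale. With 1 sample per group no model was fitted and no p-value was computed. Spread was the squared CV of counts scaled by median-of-ratios factors, less counting noise. The statistics were tested on simulated data. Alternatives were TMM factors (edgeR 4.0.16, R 4.3.3), median-of-ratios factors, medians or means over oocytes, thinning to 900000 counts, leaving out a block of oocyte numbers, and others named at the end. Python 3.11.15 with numpy 2.4.6, pandas 2.3.3 and scipy 1.17.1 was used. The members and gene lists were chosen with earlier results of these data known. The text names all members. Of the pathway list it names the 2 largest and 2 smallest log2 ratios with age and with configuration, except 1 of the smallest with age. Tet1, Dnmt3c and Zfp445 are named as well. Other names complete short counts and were chosen after their values were seen. Results that need certain items the rule would name are not reported here. DNA methylation was not analysed here.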

Additional observations from a re-analysis of the deposited data

Results flagged for a closer look

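Aged oocyte 48A was set aside by the study as an outlier. It entered only the alternatives with all 88 oocytes here, and had levels of 2 members above every young oocyte. Dppa3 stood at 3239 CPM, where the young oocytes lay between 1226 and 2521 CPM and the other aged oocytes between 1334 and 2794 CPM. Dnmt3l stood at 315 CPM, where the young oocytes lay between 117 and 196 CPM and the other aged oocytes between 91.5 and 197 CPM. In the same oocyte Dnmt1 at 654 CPM, Uhrf1 at 466 CPM and Tet3 at 204 CPM were below all 45 other aged oocytes.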

How the results depend on the processing

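The number of members past the limit between aged and young oocytes was 0 under each of the other scalings, summaries and filters tried, and with a limit of 1.5-fold the number was 0 in both comparisons of SN with NSN oocytes as well, in place of 1 in the young and 3 in the aged, where 2.76% and 10.7% of features passed that limit. In the aged comparison the number was 3 or 4 with another scaling, the median over oocytes, thinning or no filter. Dnmt1 and Uhrf1 were past the limit in each of these, Zfp57 in 4 and Tet2 without the filter on low counts, where 55.3% of features were past it, and Dnmt3b in all but TMM factors. The share of all features was not computed under the other scalings, the median or thinning. Leaving out blocks or splitting by name was run for single ratios and not for these numbers. The number of members more dispersed in aged oocytes was between 7 and 9, where 71.1% to 79.6% of features were, the median correlation between 0.02 and 0.07, and 7 of 9 members kept their place in the order per kilobase with the longest transcript or in aged oocytes. Summing all features on the same strand changed no member. Of 639 recomputed log2 ratios of single members, 83 moved by over 0.1 and 38 changed sign, 9 of these from a value over 0.1 in size. No ratio past the limit in the main values changed sign. Dnmt3b within NSN oocytes, aged over young, was past the limit at 0.33 without young oocytes 33 to 39. It stood at 0.11 without young oocytes 1 to 7. Within SN oocytes Dnmt3b was at 0.44 in oocytes with names ending in A and at -0.17 in the others. Tet3 in aged SN over NSN was at -0.41 in oocytes with names not ending in A and at 0.13 in the others. The cause was not tested. No paired analysis was possible because young and aged oocytes share no replicate number and no result comes from a test. Depth limits Tet2, which had -0.46 for aged over young without aged oocytes 25 to 31, and counting intervals leave out the spread between mice.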
